A study of Mus musculus with 9 samples.

Results

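The genes described here are 39 amino acid response genes, a set of ATF4 and genes reported to follow it, chosen by symbol from the platform annotation with older and newer names accepted. They were taken in 5 roles: 6 transcription factors and feedback regulators, 5 stress effectors and growth brakes, 10 enzymes of amino acid and one-carbon synthesis, 6 amino acid transporters and 12 cytosolic tRNA synthetases. Of the 39, 37 had at least 1 probe that names a single gene, and 32 were detected well enough to be tested among 9136 genes in all. No such probe was found for Pycr1 and Slc7a5. Psph, Cth, Cbs, Slc7a1 and Yars had probes that stayed below the detection filter, which called a probe detected below a detection p-value of 0.01 and required 3 detected arrays of the 9. Cth was detected on 1 array, and the other 4 on 0.

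The cells were bone marrow cells enriched for c-kit, a receptor on blood progenitors, from mice of the strain C57/Bl6, which the labels call murine c-kit bone marrow cells. They carried a retrovirus for MN1, for MN1-TEL or for MN1-TEL del DBD (del DBD below), with 3 replicates for each construct. All groups grew for 10 days in liquid culture with 10% serum, IL-3, IL-6 and SCF, so every array comes from transduced cells held in cytokines, and no untransduced group was analysed here. MN1 is a transcriptional coregulator and leukaemia oncogene, MN1-TEL is the fusion of it with the ETS factor TEL, and DBD stands for a DNA-binding domain in the usual reading of that abbreviation. The labels do not say whether the replicates of a group came from separate transductions, so every p-value below is set against a spread that may be technical.

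ATF4 is a bZIP transcription factor whose mRNA is translated well when the initiation factor eIF2 is phosphorylated, as happens when amino acids run short, when unfolded proteins accumulate in the endoplasmic reticulum, or when haem is scarce. It binds C/EBP-ATF response elements, often as a dimer with a C/EBP partner such as CEBPG, and raises the genes for making, importing and charging amino acids. In growing blood cells the same genes also serve protein synthesis, so they are expressed without overt stress.

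On the arrays of all groups most of these genes were well above background. Each of the 32 tested genes was detected on all 3 MN1 and all 3 del DBD arrays, and 29 were detected on all 3 MN1-TEL arrays. Sesn2 and Stc2 were detected on 2 of the 3 MN1-TEL arrays, and Slc7a3 on 1 of the 3. Levels are given as log2 of the normalised probe intensity, and since a probe's brightness depends on its own sequence, levels of different genes are not compared.

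As a group, the amino acid response genes were highest with MN1, lower with del DBD and lowest with MN1-TEL. In MN1-TEL against MN1, 27 of the 32 tested genes were lower, 0 were higher and 5 were not called, at a Benjamini-Hochberg adjusted p under 0.05 in limma's moderated test over all genes. Of all 9136 genes, 29.4% were called lower and 25.3% higher in that comparison. The median log2 difference of the 32 genes was -0.96, against -0.06 for all genes tested, and 14 were called at least 2-fold lower, a size reached by 9.36% of all genes. In 30 of the 32, all 3 MN1-TEL arrays lay below all 3 MN1 arrays, which held for 32.8% of all genes.

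In del DBD against MN1, 19 of the 32 were lower and 0 were higher, where 19.1% of all genes were called lower and 18% higher. Their median difference was -0.54, against -0.04 for all genes, and 2 genes, Shmt2 and Slc7a3, were called at least 2-fold lower (4.97% of all genes). All 3 del DBD arrays lay below all 3 MN1 arrays in 24 of the 32, as in 32.2% of all genes. The 19 fell to 12 without MN1 replicate 2 and to 12 without del DBD replicate 2. Calls of 12 of the 19 were kept whichever single array was left out, and those of Aldh18a1, Eif4ebp1, Gars, Slc3a2, Slc7a11, Stc2 and Tars were not. In MN1-TEL against MN1, all 27 calls were kept without any single array.

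Between the fusions, 17 of the 32 were higher in del DBD than in MN1-TEL and 0 were lower, where 15% of all genes were called higher and 14.4% lower. The median difference was 0.45, against 0.02 for all genes, and 6 genes were called at least 2-fold higher (4.51% of all genes). All 3 del DBD arrays lay above all 3 MN1-TEL arrays in 21 of the 32, as in 21.7% of all genes. Calls of 12 of the 17 were kept whichever single array was left out, the exceptions being Cars, Lars, Mthfd2, Shmt2 and Wars. The comparisons share arrays, MN1 in the first and second and the fusions with the third, so their counts are not independent of each other.

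The split of calls against MN1 depended on how the arrays were scaled. With quantile normalisation, 46.2% of all genes called in MN1-TEL against MN1 and 48.6% of those called in del DBD against MN1 were higher. When arrays were scaled by their medians over all probes, these shares were 81.4% and 87.1%, and the median of all genes moved to 0.40 and 0.34. The amino acid response genes stayed on the low side of that shift, with 18 lower and 1 higher in MN1-TEL and 12 lower and 2 higher in del DBD. Slc38a2 was called higher in both fusions there (0.99 and 0.94), as was Atf5 in del DBD (0.52), while the lower calls in MN1-TEL of Atf4 (-0.18, adjusted p = 0.247), Atf5, Cebpg, Vldlr, Slc3a2, Aars, Cars, Iars and Tars were lost. With median scaling over probes detected on all 9 arrays, chosen after the data were seen, 39.3% and 36.4% of all calls were higher, and 29 and 24 of the 32 genes were lower with 0 higher. Between the fusions the share of higher calls was 51.1%, 39.1% and 49.9% under these 3 scalings, with 17, 10 and 15 of the 32 genes higher and 0 lower.

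**Figure D1:**
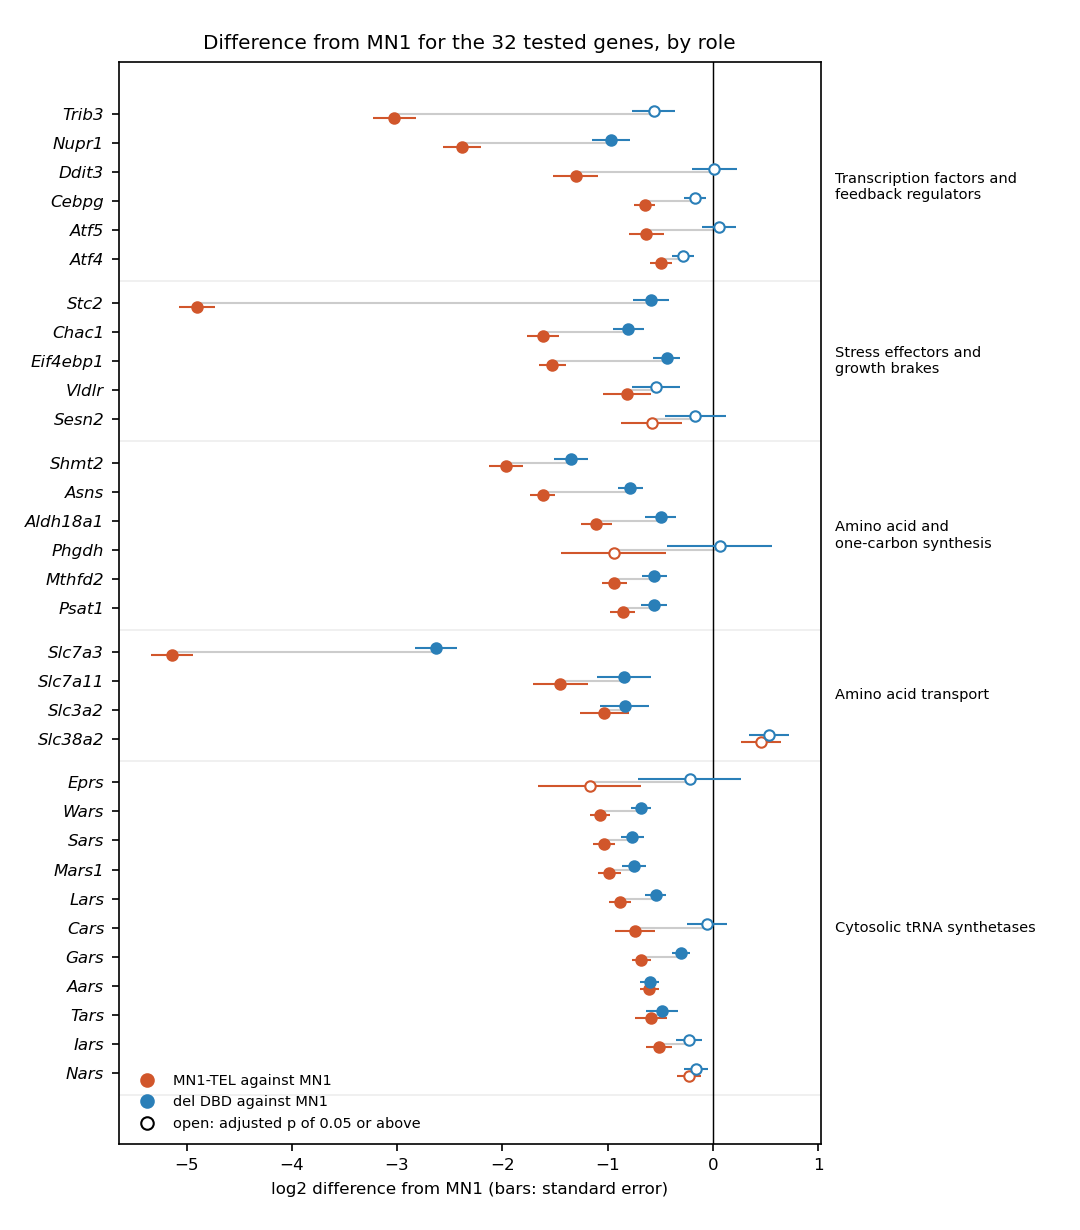
Log2 difference from MN1 (x axis) of each of the 32 tested genes, in rows grouped by role, for MN1-TEL (orange) and del DBD (blue), with bars for the standard error and open symbols for an adjusted p of 0.05 or above. The orange points of 31 genes lie below 0, down to -5.14 for Slc7a3, and the blue points lie nearer to 0 for every gene except Slc38a2.

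Some other properties of the arrays also differed between the groups. Before normalisation the mean intensity was 667 ± 30.8 (SD, n = 3) with MN1, 875 ± 20.8 with del DBD and 943 ± 26.5 with MN1-TEL. For the marker counts that follow, 25.3% of all genes were called higher and 29.4% lower in MN1-TEL than in MN1. In del DBD these shares were 18% and 19.1%. Of 13 tested markers of mature neutrophils, 12 were higher in MN1-TEL and 11 in del DBD than in MN1, and none was lower. Their mean level per array lay between 6.99 and 7.15 with MN1, between 10.5 and 10.8 with del DBD and between 11.1 and 11.4 with MN1-TEL. Of 9 monocyte and macrophage markers, 8 were higher and 1 was lower in each fusion. Of 6 tested progenitor markers, 3 were lower and 1 was higher in MN1-TEL than in MN1, and 5 were lower and 0 higher in del DBD. The marker higher in MN1-TEL was Kit itself, which was detected on all 9 arrays, with a difference of 0.73 in MN1-TEL and -1.50 in del DBD against MN1 (adjusted p = 0.0174 and 6.57e-04), and Cd34 had differences of -0.94 and -0.61 (adjusted p = 6.58e-04 and 0.0127). Of 16 proliferation genes, 4 were lower and 1 was higher in MN1-TEL, and 3 were lower and 1 was higher in del DBD. None of these proliferation counts exceeded the shares of all genes. Of 7 lymphoid markers with a probe, 6 were below the detection filter, and Cd79b had differences of -1.40 in MN1-TEL and 1.04 in del DBD (adjusted p = 1.18e-04 and 0.00141). Of 4 erythroid markers, 3 were lower in each fusion than in MN1. Of 9 mast cell and basophil markers, 3 were higher and 2 lower in MN1-TEL, and 1 was higher and 3 lower in del DBD. Their MN1-TEL counts lay near the shares of all genes. Between the fusions, 2 of the 9 were higher and 5 lower in del DBD, where 15% of all genes were called higher and 14.4% lower. Of 4 megakaryocyte markers, 1 was higher and 2 lower in MN1-TEL, and 1 was higher and 1 lower in del DBD. The megakaryocyte counts of higher markers also lay near the shares of all genes. Of 3 stroma and endothelium markers, 1 was higher in MN1-TEL and 3 in del DBD, with 0 lower. In bulk RNA, fewer cells of a type and less RNA per cell cannot be told apart, and the part of these shifts in the results below was not tested.

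The MN1-TEL arrays were less alike than those of the other groups. Pearson correlations between MN1-TEL arrays over the tested genes ran from 0.975 to 0.990, against 0.993 to 0.994 among MN1 arrays and 0.992 to 0.994 among del DBD arrays. MN1-TEL replicate 2 was the highest of the MN1-TEL arrays for 18 of the 32 genes, the lowest for 6 and between the others for 8. For 3 genes it was the lowest by more than 1 on the log2 scale. Without that array, 28 of the 32 were lower in MN1-TEL than in MN1, 21 were lower in del DBD than in MN1 and 20 were higher in del DBD than in MN1-TEL.

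The promoters of these genes were read for the element that ATF4 binds. The list was chosen as genes reported to follow ATF4, so a higher share of the element among them is not independent of the choice. Windows from 250 bases before to 50 bases after each gene's start, from RefSeq annotation of GRCm38.p6, were searched on both strands for TGATGNAA, the core of the C/EBP-ATF response element, which reads TTNCATCA on the other strand. It lay in the window of 12 of the 31 listed genes with an entry, or 38.7%. Of the 26 tested ones, 10 held it, or 38.5%, against 2.82% of 7520 tested genes with a window and 3.97% of all 32851 windows. By role it was in 2 of 6 regulators, 2 of 4 effectors, 2 of 9 synthesis enzymes, 1 of 4 transporters and 5 of 8 tRNA synthetases. The 12 genes were Trib3, Nupr1, Asns, Chac1, Gars, Aars, Slc7a11, Tars, Iars, Vldlr, Pycr1 and Yars. A match of letters is a description and not evidence of binding in these cells. The 6 below are those of the tested genes with the smallest adjusted p in MN1-TEL against MN1, shown to let the element be seen beside the values that follow. Each is written 5′ to 3′ on the gene's strand, with the element in capitals. The stretches are chr2:152344028-152344057 (minus strand) for Trib3, where the element starts 14 bases after the first transcribed base, chr7:126625527-126625626 (minus) for Nupr1, chr6:7693210-7693309 (minus) for Asns, chr2:119351003-119351102 (plus) for Chac1, chr6:55037901-55038000 (plus) for Gars and chr8:111033684-111033783 (plus) for Aars. In the last 5 the element lies upstream of the start, its first base 110, 23, 193, 30 and 112 bases before it. Aars holds a second element, TTTCATCA, whose first base lies 9 bases after the first transcribed base, outside the stretch shown.
Trib3: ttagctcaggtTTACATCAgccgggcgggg
Nupr1: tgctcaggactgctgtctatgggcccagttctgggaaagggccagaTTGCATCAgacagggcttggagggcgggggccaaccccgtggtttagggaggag
Asns: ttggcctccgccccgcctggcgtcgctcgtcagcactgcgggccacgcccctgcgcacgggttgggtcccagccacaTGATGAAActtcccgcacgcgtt
Chac1: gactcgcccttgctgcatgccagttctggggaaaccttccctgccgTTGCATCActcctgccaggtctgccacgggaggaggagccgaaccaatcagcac
Gars: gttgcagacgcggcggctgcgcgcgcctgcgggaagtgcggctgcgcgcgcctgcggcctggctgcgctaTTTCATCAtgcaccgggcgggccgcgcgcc
Aars: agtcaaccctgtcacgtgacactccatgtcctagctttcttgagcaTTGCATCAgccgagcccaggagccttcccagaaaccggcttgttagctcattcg

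All 6 transcription factors and feedback regulators were lower in MN1-TEL than in MN1, and 1 of the 6 (Nupr1) was lower in del DBD than in MN1. Of the 6, 5 (all but Atf4) were higher in del DBD than in MN1-TEL. The corresponding shares of all genes were 29.4%, 19.1% and 15%, so that the 1 of 6 lay near its share. Differences of the 6 regulators between MN1-TEL and MN1 ran from -3.03 to -0.49 on the log2 scale. Without MN1-TEL replicate 2 the counts were 6, 3 and 5 of the 6.

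Atf4 itself, the head of the set, moved least of the 6 in MN1-TEL. Its level was 13.23, 13.34 and 13.29 on the MN1 arrays, 12.94, 13.06 and 12.99 on the del DBD arrays and 12.93, 12.82 and 12.63 on the MN1-TEL arrays. MN1 was highest on every array, and the MN1-TEL and del DBD arrays lay next to each other without overlap. The difference of MN1-TEL from MN1 was -0.49 (SE 0.11), or 1.40-fold lower, with an adjusted p of 0.00350. That of del DBD from MN1 was -0.28, with an adjusted p of 0.0619 that became 0.0402 to 0.0488 when any 1 MN1-TEL array was left out. Between the fusions it was 0.21 (adjusted p = 0.174). At a second probe of Atf4, detected on every array, the difference of del DBD from MN1 was 0.07 (adjusted p = 0.911 over all probes). ATF4 is controlled largely at translation, and these arrays measure mRNA alone.

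Trib3, a pseudokinase that is induced by ATF4 and dampens it, showed the largest difference of the regulators. It read 12.16, 12.36 and 12.30 with MN1, 11.67, 11.68 and 11.79 with del DBD and 8.92, 9.79 and 9.03 with MN1-TEL. The 3 groups did not overlap, and del DBD lay close to MN1. Trib3 was 8.15-fold lower in MN1-TEL than in MN1 (log2 difference -3.03, SE 0.20, adjusted p = 2.32e-06) and 5.53-fold higher in del DBD than in MN1-TEL (adjusted p = 4.42e-05). In del DBD against MN1 the difference was -0.56, with an adjusted p of 0.0567 that became 0.00139 without MN1-TEL replicate 2 and 0.0414 without MN1-TEL replicate 1.

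Nupr1, a small stress-induced chromatin protein, fell in both fusions. Its level was 11.09, 11.11 and 10.90 with MN1, 9.95, 10.02 and 10.23 with del DBD and 8.60, 9.04 and 8.30 with MN1-TEL. Each group was separated from the next, with del DBD between the other groups. Nupr1 was 5.21-fold lower in MN1-TEL (log2 difference -2.38, SE 0.18, adjusted p = 4.69e-06) and 1.95-fold lower in del DBD (adjusted p = 0.00267) than in MN1, and 2.66-fold higher in del DBD than in MN1-TEL (adjusted p = 4.22e-04).

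Ddit3, which encodes the pro-apoptotic factor CHOP, differed in MN1-TEL from both other groups. It read 9.28, 9.79 and 9.57 with MN1, 9.39, 9.39 and 9.92 with del DBD and 8.62, 8.08 and 8.03 with MN1-TEL. The MN1 and del DBD arrays were intermixed, and all MN1-TEL arrays lay below them. The log2 difference of MN1-TEL from MN1 was -1.30 (SE 0.21, adjusted p = 7.15e-04), and del DBD was 2.50-fold higher than MN1-TEL (adjusted p = 0.00166). In del DBD against MN1 it was 0.02 with the same SE (adjusted p = 0.963).

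Cebpg, the dimer partner named above, read 11.36, 11.54 and 11.41 with MN1, 11.15, 11.30 and 11.35 with del DBD and 10.77, 10.88 and 10.70 with MN1-TEL. MN1-TEL lay below all arrays of the other groups, which nearly met each other. Cebpg was 1.57-fold lower in MN1-TEL than in MN1 (adjusted p = 6.13e-04) and higher in del DBD than in MN1-TEL by 0.48 (adjusted p = 0.00736), and its difference of -0.17 in del DBD against MN1 was not called (adjusted p = 0.236). With the mean of its probes in place of the brightest, the difference of Cebpg between the fusions was 0.24 and not called (adjusted p = 0.224). That mean includes a probe near the lowest detected signals. With median scaling over all probes the difference was 0.33 (adjusted p = 0.0809). Atf5, an ATF4 relative that promotes survival, was lower in MN1-TEL than in MN1 by a difference of -0.63 (adjusted p = 0.00951), and its difference in del DBD was 0.06 (adjusted p = 0.814). Between the fusions Atf5 was higher in del DBD by 0.69 (adjusted p = 0.0124).

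**Figure D2:**
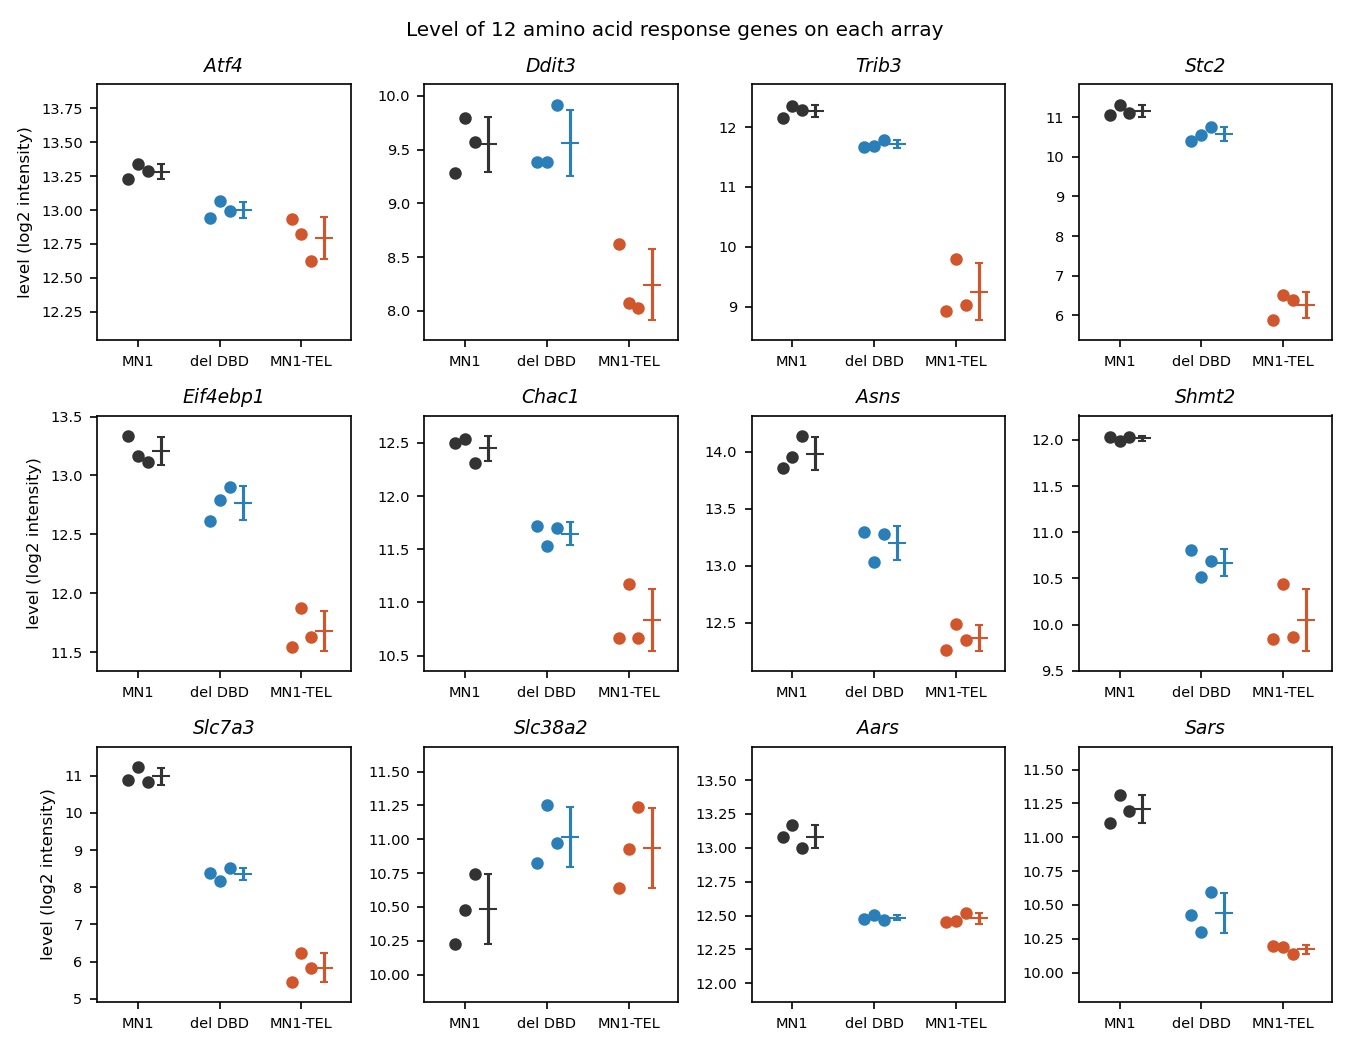
Level (log2 normalised intensity, y axis, scaled to each panel) of 12 of the amino acid response genes on each array of MN1, del DBD and MN1-TEL (x axis), with lines for the mean and 1 SD (n = 3). Trib3, Stc2 and Ddit3 of del DBD lie near MN1, Aars of del DBD lies with MN1-TEL, and Slc38a2 shows no fall in either fusion.

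Of the 5 stress effectors and growth brakes, 4 were lower in MN1-TEL than in MN1, 3 were lower in del DBD than in MN1 and 3 were higher in del DBD than in MN1-TEL. The corresponding shares of all genes were 29.4%, 19.1% and 15%. The counts of the effectors were the same without MN1-TEL replicate 2. Sesn2 was the gene not called in any of the 3 comparisons.

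Stc2, a secreted glycoprotein induced by ATF4, had its main fall in MN1-TEL. It read 11.05, 11.32 and 11.10 with MN1, 10.40, 10.56 and 10.75 with del DBD and 5.88, 6.51 and 6.38 with MN1-TEL. The MN1-TEL arrays were near background, with 2 of 3 detected, while del DBD stayed close below MN1. Stc2 was 29.8-fold lower in MN1-TEL than in MN1 (log2 difference -4.90, SE 0.17, adjusted p = 5.48e-08) and 19.8-fold higher in del DBD than in MN1-TEL (log2 difference 4.31, adjusted p = 2.59e-06). Without background correction these log2 differences were -3.59 and 3.04, and both were called. The difference of del DBD from MN1 was -0.59 (adjusted p = 0.0255), a call that was lost without MN1 replicate 2 or 3 or del DBD replicate 1 or 2 (adjusted p = 0.0548 to 0.0912).

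Chac1, which degrades glutathione, showed a stepwise order. Its level was 12.50, 12.53 and 12.31 with MN1, 11.72, 11.53 and 11.70 with del DBD and 10.67, 11.17 and 10.66 with MN1-TEL. No arrays of different groups overlapped. Chac1 was 3.06-fold lower in MN1-TEL (SE of the log2 difference 0.15, adjusted p = 1.98e-05) and 1.74-fold lower in del DBD (adjusted p = 0.00292) than in MN1, and 1.76-fold higher in del DBD than in MN1-TEL (adjusted p = 0.00352).

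Eif4ebp1 encodes 4E-BP1, the brake on cap-dependent translation that mTORC1 releases. It read 13.34, 13.16 and 13.11 with MN1, 12.61, 12.79 and 12.90 with del DBD and 11.54, 11.87 and 11.62 with MN1-TEL. The order was again MN1, del DBD, MN1-TEL with no overlap. Eif4ebp1 was 2.88-fold lower in MN1-TEL than in MN1 (SE of the log2 difference 0.13, adjusted p = 9.16e-06) and 2.13-fold higher in del DBD than in MN1-TEL (adjusted p = 2.61e-04). Its 1.35-fold lower level in del DBD than in MN1 (adjusted p = 0.0240) was lost as a call without MN1 replicate 1 or 2 or del DBD replicate 1 or 2 (adjusted p = 0.0571 to 0.0924).

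Vldlr, a lipoprotein receptor, read 11.77, 12.10 and 12.11 with MN1, 11.22, 11.46 and 11.68 with del DBD and 11.72, 10.88 and 10.93 with MN1-TEL. MN1-TEL replicate 1 lay near the lowest MN1 array and above all del DBD arrays. Vldlr was 1.76-fold lower in MN1-TEL than in MN1 (adjusted p = 0.0135), and the differences in the other comparisons were not called (-0.54 with adjusted p = 0.0936, and 0.28 with adjusted p = 0.403). Without MN1-TEL replicate 1, the difference of del DBD from MN1 was called (adjusted p = 0.0218), as was that between the fusions, which became 0.55 (adjusted p = 0.0427). The other tested probes of Vldlr gave -0.49 and -0.70 in MN1-TEL against MN1. Neither was called (adjusted p = 0.115 and 0.0883 over all probes). Sesn2, a stress-induced leucine sensor that restrains mTORC1, had a difference of -0.58 in MN1-TEL against MN1 (adjusted p = 0.112), with MN1-TEL replicate 2 at 6.05 and the other MN1-TEL arrays at 7.19 and 7.16. Without replicate 2 its difference was -0.20 (adjusted p = 0.291).

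Of the 6 tested enzymes of amino acid and one-carbon synthesis, 5 were lower in MN1-TEL than in MN1, the same 5 were lower in del DBD than in MN1, and 4 were higher in del DBD than in MN1-TEL. The corresponding shares of all genes were 29.4%, 19.1% and 15%. Without MN1-TEL replicate 2 the counts of the enzymes were 5, 5 and 5.

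Asns, the enzyme that makes asparagine and the classical ATF4 target, read 13.85, 13.95 and 14.14 with MN1, 13.30, 13.03 and 13.27 with del DBD and 12.26, 12.49 and 12.34 with MN1-TEL. The groups stood apart in even steps. Asns was 3.07-fold lower in MN1-TEL (log2 difference -1.62, SE 0.12, adjusted p = 4.75e-06) and 1.72-fold lower in del DBD (adjusted p = 0.00101) than in MN1, and 1.78-fold higher in del DBD than in MN1-TEL (adjusted p = 9.31e-04).

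Shmt2, the mitochondrial serine hydroxymethyltransferase that feeds the one-carbon pool, fell in both fusions at its brighter probe. It read 12.03, 11.98 and 12.03 with MN1, 10.81, 10.52 and 10.69 with del DBD and 9.84, 10.44 and 9.87 with MN1-TEL. The fusions lay close together and well below MN1. Shmt2 was 3.91-fold lower in MN1-TEL (log2 difference -1.97, SE 0.16, adjusted p = 8.67e-06) and 2.54-fold lower in del DBD (adjusted p = 2.02e-04). A second, dim probe, detected on 1 of 3 MN1-TEL arrays, gave -1.24 in MN1-TEL and -0.52 in del DBD against MN1. Only the first of these was called (adjusted p = 0.0307 and 0.373 over all probes). The difference of 0.62 between the fusions (adjusted p = 0.0181) lost its call without MN1-TEL replicate 1 or 3 or del DBD replicate 1 or 3 (adjusted p = 0.0576 to 0.0643).

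Mthfd2, the next enzyme of the mitochondrial one-carbon pathway, read 13.57, 13.49 and 13.32 with MN1, 12.94, 12.87 and 12.90 with del DBD and 12.43, 12.73 and 12.42 with MN1-TEL. It fell in the same order as Asns, by smaller amounts. Mthfd2 was 1.91-fold lower in MN1-TEL (adjusted p = 1.42e-04) and 1.47-fold lower in del DBD (adjusted p = 0.00541) than in MN1. The difference of 0.38 between the fusions (adjusted p = 0.0382) was lost without MN1 replicate 1 or 2, MN1-TEL replicate 1 or 3 or any 1 del DBD array (adjusted p = 0.0518 to 0.101).

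Aldh18a1, which begins proline synthesis from glutamate, read 12.56, 12.56 and 12.41 with MN1, 12.27, 11.76 and 12.03 with del DBD and 11.39, 11.58 and 11.24 with MN1-TEL. The 3 groups did not overlap. Aldh18a1 was 2.15-fold lower in MN1-TEL than in MN1 (adjusted p = 1.98e-04) and 1.53-fold higher in del DBD than in MN1-TEL (adjusted p = 0.0126). Its difference of -0.49 in del DBD against MN1 (adjusted p = 0.0265) was lost without MN1 replicate 1 or 2 or del DBD replicate 2 or 3 (adjusted p = 0.0688 to 0.0956).

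Psat1, the aminotransferase of serine synthesis, was 1.81-fold lower in MN1-TEL (adjusted p = 3.00e-04) and 1.47-fold lower in del DBD (adjusted p = 0.00616) than in MN1. Its difference of 0.30 between the fusions was not called (adjusted p = 0.0971) but was without MN1-TEL replicate 2 (adjusted p = 0.0240). Phgdh, the first enzyme of that pathway, was not called in any comparison. Its MN1-TEL arrays read 8.47, 6.77 and 9.19, so that the difference of -0.94 from MN1 (SE 0.50, adjusted p = 0.138) was -0.25 without replicate 2 (adjusted p = 0.392) and -1.47 without replicate 3 (adjusted p = 0.0214).

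Among the 4 tested transporters, 3 were lower in each fusion than in MN1 and 1, Slc7a3, was higher in del DBD than in MN1-TEL. Slc7a11 joined it without MN1-TEL replicate 2. Of all genes, 29.4% were called lower in MN1-TEL and 19.1% in del DBD than in MN1, and 15% were called higher in del DBD than in MN1-TEL.

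Slc7a3, the cationic amino acid transporter CAT3, fell steeply in both fusions. It read 10.88, 11.24 and 10.83 with MN1, 8.38, 8.17 and 8.51 with del DBD and 5.46, 6.24 and 5.82 with MN1-TEL. The MN1-TEL arrays were at the edge of detection, with 1 of 3 detected, and del DBD lay about midway on the log scale. Slc7a3 was 35.3-fold lower in MN1-TEL (log2 difference -5.14, SE 0.20, adjusted p = 8.97e-08) and 6.17-fold lower in del DBD (adjusted p = 9.72e-06) than in MN1, and 5.72-fold higher in del DBD than in MN1-TEL (adjusted p = 3.60e-05). Near background these sizes moved with the background correction: without it the log2 differences were -3.58 in MN1-TEL against MN1 and 1.32 between the fusions, where the latter was 2.52 with it.

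Slc7a11 and Slc3a2 form the cystine-glutamate exchanger, xCT and its heavy chain. Slc7a11 read 9.86, 10.25 and 9.82 with MN1, 9.23, 9.17 and 9.01 with del DBD and 8.29, 9.21 and 8.09 with MN1-TEL. MN1-TEL replicate 2 lay among the del DBD arrays and the other MN1-TEL arrays below them. Slc7a11 was 2.73-fold lower in MN1-TEL than in MN1 (adjusted p = 0.00127). Its difference of -0.84 in del DBD (adjusted p = 0.0308) was lost without any 1 of the MN1 or del DBD arrays (adjusted p = 0.0516 to 0.105), and that of 0.60 between the fusions (adjusted p = 0.113) was called without MN1-TEL replicate 2 (adjusted p = 0.00170). Slc3a2, the chain shared with several transporters, read 8.87, 8.93 and 8.90 with MN1, 8.37, 7.65 and 8.18 with del DBD and 7.65, 8.37 and 7.59 with MN1-TEL. The fusions overlapped each other below MN1, and the difference between them was 0.19 (adjusted p = 0.578). Slc3a2 was 2.04-fold lower in MN1-TEL than in MN1 (adjusted p = 0.00457), and its 1.79-fold lower level in del DBD (adjusted p = 0.0204) was not called without any 1 MN1 array or del DBD replicate 2 (adjusted p = 0.0527 to 0.0734).

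Slc38a2, the glutamine and alanine transporter SNAT2, was the gene of the 32 whose difference in MN1-TEL against MN1 was positive. It read 10.22, 10.48 and 10.74 with MN1, 10.82, 11.26 and 10.97 with del DBD and 10.64, 10.93 and 11.24 with MN1-TEL. All del DBD arrays lay above MN1, and MN1-TEL overlapped both. The difference of MN1-TEL from MN1, 0.45, and that of del DBD, 0.53, were not called (adjusted p = 0.0685 and 0.0527). The first passed without MN1 replicate 3 (adjusted p = 0.0427) or MN1-TEL replicate 1 (adjusted p = 0.0301), and the second without MN1 replicate 3, MN1-TEL replicate 1 or MN1-TEL replicate 3. Other probes of Slc38a2 had differences from MN1 of -0.04 and 0.17 in MN1-TEL and of -0.21 and -0.03 in del DBD, none of them called. Its probes thus did not share a direction in either fusion. The one at 0.17 read 6.10 to 6.81, near the lowest detected signals.

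The cytosolic tRNA synthetases load amino acids onto their tRNAs. Of the 11 tested, 9 were lower in MN1-TEL than in MN1, 7 were lower in del DBD than in MN1 and 4 were higher in del DBD than in MN1-TEL. The corresponding shares of all genes were 29.4%, 19.1% and 15%. Differences of the 11 synthetases between MN1-TEL and MN1 ran from -1.17 to -0.23, a narrower range than in any other role group. Without MN1-TEL replicate 2 the counts of the synthetases were 10, 7 and 5.

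Wars, for tryptophan, read 11.69, 11.74 and 11.75 with MN1, 11.07, 11.13 and 10.94 with del DBD and 10.72, 10.57 and 10.67 with MN1-TEL. It stood in 3 separate steps. Wars was 2.10-fold lower in MN1-TEL (SE of the log2 difference 0.09, adjusted p = 1.33e-05) and 1.60-fold lower in del DBD (adjusted p = 5.02e-04) than in MN1. Its difference of 0.39 between the fusions (adjusted p = 0.0127) had an adjusted p of 0.0529 without del DBD replicate 2. With the mean of its probes in place of the brightest, that difference was 0.25 and not called (adjusted p = 0.372). Median scaling over all probes also gave 0.25 (adjusted p = 0.138).

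Sars, for serine, read 11.11, 11.31 and 11.20 with MN1, 10.42, 10.30 and 10.60 with del DBD and 10.20, 10.19 and 10.14 with MN1-TEL. Most of its fall was already present in del DBD. Sars was 2.05-fold lower in MN1-TEL (adjusted p = 4.08e-05) and 1.70-fold lower in del DBD (adjusted p = 5.30e-04) than in MN1, and the fusions differed by 0.27 (adjusted p = 0.0905).

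Mars1, for methionine, had levels of 11.37, 11.28 and 11.17 with MN1, 10.58, 10.41 and 10.59 with del DBD and 10.24, 10.45 and 10.18 with MN1-TEL. Its pattern was close to that of Sars, with 1 MN1-TEL array inside the del DBD range. Mars1 was 1.98-fold lower in MN1-TEL (adjusted p = 7.16e-05) and 1.68-fold lower in del DBD (adjusted p = 7.75e-04), and the fusions differed by 0.24 (adjusted p = 0.144, or 0.0445 without MN1-TEL replicate 2).

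Lars, for leucine, had levels of 14.21, 14.22 and 14.04 with MN1, 13.70, 13.59 and 13.54 with del DBD and 13.27, 13.37 and 13.18 with MN1-TEL. The groups did not overlap. Lars was 1.84-fold lower in MN1-TEL (adjusted p = 8.84e-05) and 1.46-fold lower in del DBD (adjusted p = 0.00302). The difference of 0.34 between the fusions (adjusted p = 0.0359) was lost without MN1 replicate 1 or 2, MN1-TEL replicate 1 or 3 or any 1 del DBD array (adjusted p = 0.0568 to 0.112).

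Gars, for glycine, varied little between replicates, with 14.93, 14.99 and 14.96 in MN1, 14.62, 14.66 and 14.69 in del DBD and 14.22, 14.34 and 14.28 in MN1-TEL. The steps were small beside those of Trib3 or Stc2 yet free of overlap. Gars was 1.60-fold lower in MN1-TEL than in MN1 (adjusted p = 1.58e-04) and higher in del DBD than in MN1-TEL by 0.38 (adjusted p = 0.0103). Its difference of -0.30 in del DBD against MN1 (adjusted p = 0.0236) was lost without any 1 of the MN1 or del DBD arrays (adjusted p = 0.0549 to 0.0837).

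Aars, for alanine, was the synthetase in which the fusions differed least. It read 13.079, 13.166 and 12.998 with MN1, 12.48, 12.50 and 12.47 with del DBD and 12.45, 12.46 and 12.52 with MN1-TEL. It was 1.52-fold lower in MN1-TEL (adjusted p = 3.99e-04) and 1.51-fold lower in del DBD (adjusted p = 7.97e-04) than in MN1, with no call between the fusions (adjusted p = 0.974, SE 0.09). The other synthetases moved by smaller or less certain amounts. Cars, for cysteine, was 1.67-fold lower in MN1-TEL than in MN1 (adjusted p = 0.00945) and had a difference of -0.06 in del DBD (adjusted p = 0.847). Its MN1-TEL arrays read 6.04, 6.25 and 6.63, near the lowest detected signals, so the sizes of its differences from MN1-TEL are uncertain. The difference of 0.68 in Cars between the fusions (adjusted p = 0.0254) was lost without MN1-TEL replicate 1 or del DBD replicate 2 or 3 (adjusted p = 0.0554 to 0.0929). Iars, for isoleucine, was 1.42-fold lower in MN1-TEL (adjusted p = 0.00713) and was not called in the other comparisons.

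Tars, for threonine, was 1.50-fold lower in MN1-TEL than in MN1 (adjusted p = 0.00915). Its difference of -0.49 in del DBD (adjusted p = 0.0324) was lost without any 1 MN1 array or del DBD replicate 2 or 3 (adjusted p = 0.0607 to 0.107), and it was 0.0035 when arrays were scaled by their medians over all probes instead of quantile normalised. Nars, for asparagine, was not called in any comparison, with a difference of -0.23 in MN1-TEL against MN1 (adjusted p = 0.120). Eprs, the joint synthetase for glutamate and proline, read 10.39, 8.41 and 10.72 with MN1-TEL, and its difference of -1.17 from MN1 was not called (adjusted p = 0.0695). Without MN1-TEL replicate 2 it was -0.46 (adjusted p = 0.0381), and without MN1-TEL replicate 3 it was -1.61 (adjusted p = 0.0212).

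Side by side, the comparisons split the 27 genes that were lower in MN1-TEL. Of these, 12 were called in all 3 comparisons, with del DBD between the other groups: Nupr1, Chac1, Eif4ebp1, Stc2, Aldh18a1, Asns, Mthfd2, Shmt2, Slc7a3, Gars, Lars and Wars. A further 7 were lower in both fusions than in MN1 with no call between the fusions, and 4 of the 7 were synthetases (Aars, Mars1, Sars and Tars) beside Psat1, Slc3a2 and Slc7a11. For 5, Atf5, Cebpg, Ddit3, Trib3 and Cars, del DBD was called against MN1-TEL and not against MN1. Atf4, Vldlr and Iars were called in MN1-TEL against MN1 alone. A missing call does not show that the levels are equal. The calls named above as lost without single arrays or under other settings move genes between these classes. The order of group means was MN1, del DBD, MN1-TEL in 28 of the 32 genes, an order found in 29.9% of all genes. The exceptions were Atf5, Ddit3 and Phgdh, with del DBD first and MN1-TEL last, and Slc38a2, with MN1 last.

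The array carried several probes for many of these genes, which gives a second reading of each mRNA on the same RNA samples. Of 82 probes, 57 passed the filter, and 42 of the 57 were lower in MN1-TEL than in MN1 and 0 were higher when adjusted over all 15870 probes, of which 25.7% were called lower and 23% higher. In del DBD against MN1, 24 of the 57 were lower and 0 higher (15.8% and 15.6% of all probes), and 21 of the 57 were higher and 0 lower in del DBD than in MN1-TEL (11.9% and 11.5% of all probes). For 17 genes at least 2 probes were tested, 42 probes in all. Every probe of a gene had the same sign in 16 of the 17 in MN1-TEL against MN1, in 14 of the 17 in del DBD against MN1 and in 15 of the 17 between the fusions. Every probe was called in 9, 2 and 2 of the 17, some but not all in 7, 8 and 6, and none in 1, 7 and 9.

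A second probe of Trib3, detected on 1 of 3 MN1-TEL arrays, gave a difference of -2.71 in MN1-TEL against MN1. The third was detected on 0 of 3 MN1-TEL arrays and was at least 2.10-fold lower there (adjusted p = 5.30e-05). The further probes of Asns gave -2.14 (detected on 2 of 3 MN1-TEL arrays) and -1.85. Every tested probe of Trib3 and of Asns was called lower in MN1-TEL. A second probe of Cebpg gave -0.13 and was not called (adjusted p = 0.650). It read 5.90 to 6.76, near the lowest detected signals, which leaves little room for a fall to be seen. A second probe of Atf4 gave -0.46 with an SE of 0.39 (adjusted p = 0.359), with MN1-TEL replicate 2 at 9.93 and the other MN1-TEL arrays at 11.45 and 11.65. A second probe of Eprs gave -0.84 and was called (adjusted p = 0.00186). The third gave -1.18 and was not called (adjusted p = 0.1045), with MN1-TEL replicate 2 at 6.02 and the other MN1-TEL arrays at 8.03 and 8.58.

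**Figure D3:**
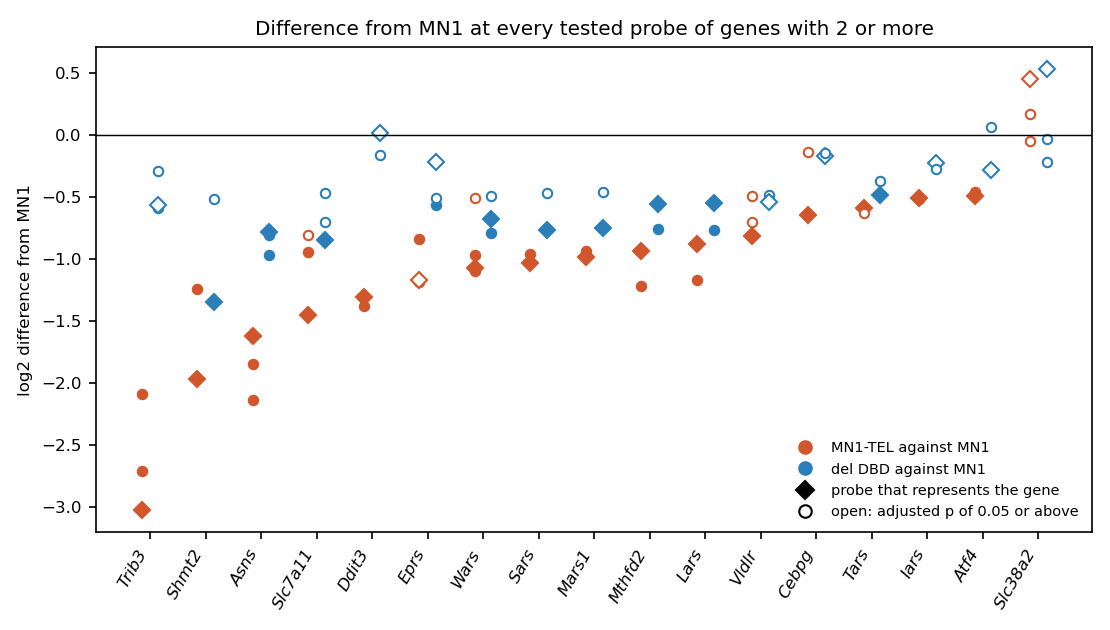
Log2 difference from MN1 (y axis) at each tested probe of the 17 genes with 2 or more (x axis), for MN1-TEL (orange) and del DBD (blue), with diamonds for the probe that represents the gene and open symbols for an adjusted p of 0.05 or above over all probes. Probes of Trib3 lie at -3.03 and -2.71 in MN1-TEL, its highest point there is measured against arrays below background and stands for a fall of at least 2.10-fold, and those of Slc38a2 lie on both sides of 0.

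Other genes of the pathway were taken as lists beside the 39. The shares of all genes called lower and higher than MN1 were 29.4% and 25.3% in MN1-TEL, and 19.1% and 18% in del DBD. Of 22 tested genes from a list of other reported ATF4 targets, 13 were lower and 3 higher in MN1-TEL than in MN1, and 10 were lower and 3 higher in del DBD. Bcat1, which begins the breakdown of branched-chain amino acids, was detected on no MN1-TEL array and was at least 48.3-fold lower there than in MN1 (adjusted p = 7.78e-09). It was 4.16-fold lower in del DBD than in MN1 (adjusted p = 9.55e-06). Aldh1l2, a mitochondrial folate enzyme, had differences of -4.39 in MN1-TEL and -1.10 in del DBD (adjusted p = 5.93e-07 and 0.00571), and Gpt2, an alanine aminotransferase, had -3.30 and -1.30 (adjusted p = 3.50e-07 and 2.56e-04). Slc1a4, a neutral amino acid transporter, had -2.84 and -1.31 (adjusted p = 2.37e-06 and 7.20e-04). Atf3, a stress-induced bZIP factor, was higher in both fusions, by 0.90 in MN1-TEL and 0.70 in del DBD (adjusted p = 0.00702 and 0.0334). Ddit4, an mTORC1 inhibitor, was lower in both, at -0.90 and -0.71 (adjusted p = 0.00881 and 0.0377).

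The list upstream of ATF4 was mixed. Of 13 tested eIF2 kinases and eIF2 subunits, exchange factors and phosphatase genes, 4 were higher and 4 lower in MN1-TEL than in MN1. In del DBD, 1 was higher and 4 lower. Of all genes, 25.3% were called higher and 29.4% lower in MN1-TEL, and 18% and 19.1% in del DBD. The MN1-TEL counts of this list thus lay near the shares of all genes. The 3 tested eIF2 kinases were each higher in MN1-TEL than in MN1. The haem-regulated kinase gene Eif2ak1 had a difference of 0.51 (adjusted p = 0.00670) and Eif2ak2, for the double-stranded RNA sensor PKR, 0.64 (adjusted p = 3.03e-04), while Eif2ak3, for the endoplasmic reticulum sensor PERK, was detected on no MN1 array and was at least 1.10-fold higher (adjusted p = 0.00553). In del DBD against MN1, Eif2ak2 was higher by 0.54 (adjusted p = 0.00166), and Eif2ak1 and Eif2ak3 were not called (adjusted p = 0.1504 and 0.0944). The genes lower in MN1-TEL were the eIF2 subunit gene Eif2s2 (2.01-fold, adjusted p = 4.35e-05) and the exchange factor genes Eif2b1, Eif2b3 and Eif2b5, with differences of -0.35, -0.75 and -0.62. Eif2ak4, which encodes the uncharged-tRNA sensor GCN2, was below the detection filter. Ppp1r15a, the stress-induced eIF2 phosphatase subunit GADD34 and itself an ATF4-pathway target, had differences of 0.09 and -0.24 (adjusted p = 0.737 and 0.408). Among 14 endoplasmic reticulum chaperones and targets of IRE1 and ATF6, 0 were higher and 4 lower in MN1-TEL than in MN1. In del DBD against MN1, 2 were higher and 0 lower. Between the fusions, 5 were higher and 1 lower in del DBD, where 15% of all genes were called higher and 14.4% lower. Hspa5, which encodes the chaperone BiP, had differences of -0.29 and 0.30 from MN1 (adjusted p = 0.113 and 0.135) and was higher in del DBD than in MN1-TEL by 0.59 (adjusted p = 0.0136).

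Synthetases outside the 39 were also counted. The shares of all genes called lower and higher than MN1 were 29.4% and 25.3% in MN1-TEL, and 19.1% and 18% in del DBD. Of 6 further cytosolic tRNA synthetases, 3 were lower in MN1-TEL and 2 in del DBD than in MN1, with none higher. Vars, for valine, had differences of -1.04 and -0.57 (adjusted p = 3.46e-05 and 0.00276). Of 13 mitochondrial synthetases, 7 were lower and 0 higher in MN1-TEL, and 6 were lower and 1 higher in del DBD. Aars2, the mitochondrial enzyme for alanine, was 3.85-fold lower in MN1-TEL and 1.48-fold lower in del DBD (adjusted p = 1.17e-06 and 0.00458), so that its fusions differed (log2 difference 1.38, adjusted p = 4.83e-05). The TGATGNAA core lay in 0 of 13 promoter windows of mitochondrial synthetases, in 0 of 5 of the further cytosolic ones and in 6 of 24 of the other reported ATF4 targets. Of 15 genes of leucine sensing and mTORC1, 3 were higher and 4 lower in MN1-TEL than in MN1, and 1 was higher and 3 lower in del DBD. These counts lay near or below the shares of all genes. Castor1, an arginine sensor, had differences of -1.30 and -0.86 (adjusted p = 4.12e-04 and 0.00764).

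**Figure D4:**
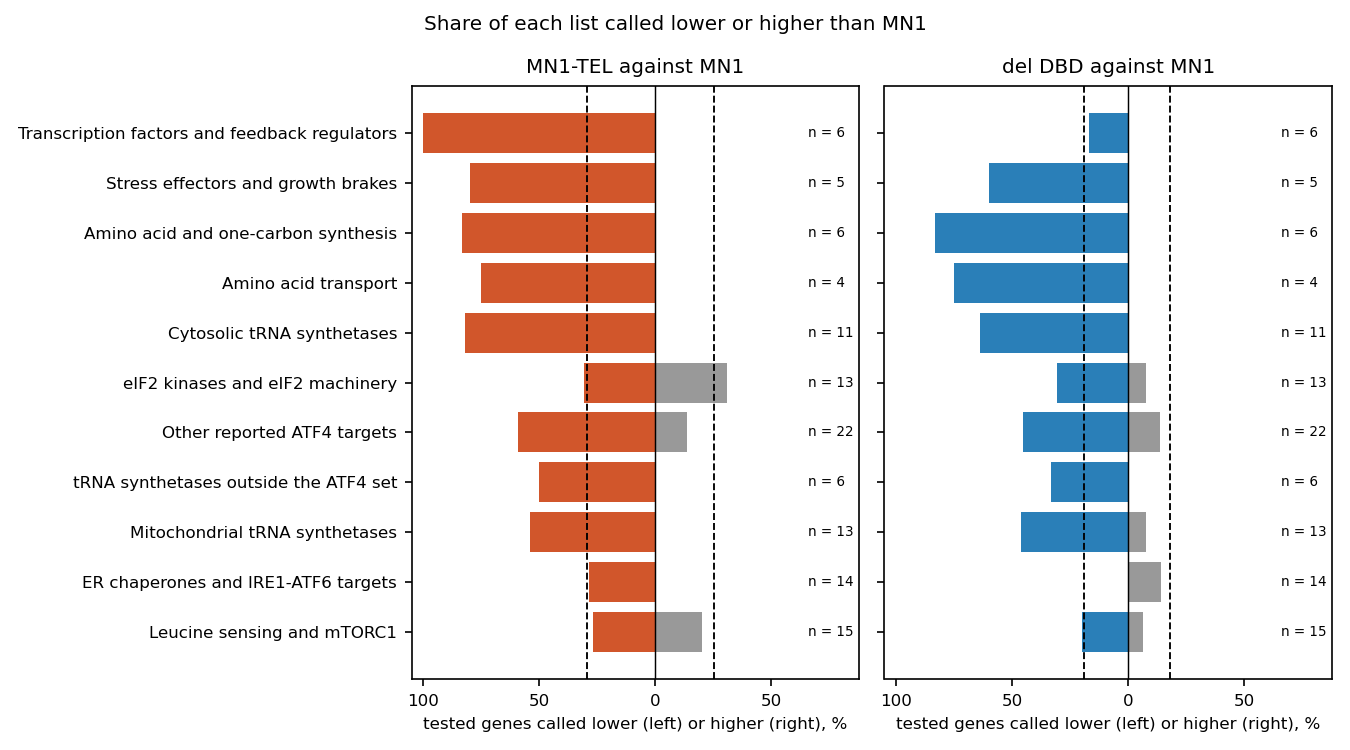
Percentage of tested genes called lower (left of 0) or higher (right of 0) than MN1 for the 5 role groups and 6 further pathway lists, in MN1-TEL (left panel) and del DBD (right panel), with dashed lines for the shares of all 9136 genes and n for the genes tested. All 6 regulators were called lower in MN1-TEL against 1 of 6 in del DBD, while the eIF2 list has 4 of 13 on each side in MN1-TEL.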

How the data were processed

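RNA of 9 samples, 3 per construct, was measured on Illumina mouse arrays. GenomeStudio 2010.3 was used per the submitters' processing notes, and no later step of the authors is given in the sources used here. In the main deposited table each probe has 1 intensity per array, not normalised as judged from its values, and, per the file headers, a detection p-value beside each. A table of normalised intensity values, also deposited by the authors, served as an alternative. With arrays, their number limits the precision.

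The 45281 probes were background-corrected with normexp from the detection p-values, given an offset of 16, quantile normalised and taken to log2 (neqc of limma 3.58.1 in R 4.3.3). The filter kept the 15870 probes that were detected, at a threshold of 0.01, on 3 or more arrays. By the platform annotation, 34885 probes had 1 gene symbol, 18 several and 10378 none. The kept probe with the highest mean represented its gene (9136 genes). Differences were tested with lmFit and eBayes over all 9 arrays in 3 groups, without a replicate block, with Benjamini-Hochberg adjustment over all genes, or over all probes in a separate fit, and a threshold of 0.05. The same steps were tested on simulated data. A fold against a group with no detected array is a bound from the lowest detected signal.

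The genes and lists were chosen with earlier results of these data known. Per-array values are given for Atf4, Ddit3, Trib3, Asns and Chac1, for up to 4 genes per role with the smallest adjusted p against MN1 and for up to 2 between the fusions. Other lists name up to 4 genes per comparison plus Atf3, Ppp1r15a, Ddit4, Eif2ak3, Eif2ak4, Hspa5, Bcat1, Kit and Cd34. Promoter sequences are from RefSeq (GRCm38.p6).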

Additional observations from a re-analysis of the deposited data

How the results depend on the processing

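The results were recomputed under 20 alternatives, 9 of which left out 1 array each. The choice of scaling mattered most. Scaling arrays by their medians over all probes moved the median difference of all genes to 0.40 in MN1-TEL against MN1, 0.34 in del DBD against MN1 and -0.07 between the fusions, from -0.06, -0.04 and 0.02. The median of the 32 genes then became -0.64 and -0.30 against MN1, still below that of all genes, with 19, 14 and 10 of the 32 called, and the difference of Tars in del DBD against MN1 turned to 0.0035 (adjusted p = 0.986). The cause of these moves was not tested. Median scaling over probes detected on all 9 arrays, an alternative chosen after seeing the data, gave medians of -1.19 and -0.76. Over all alternatives, 18 of the 27 calls in MN1-TEL against MN1, 11 of the 19 in del DBD against MN1 and 9 of the 17 between the fusions were kept wherever the gene was tested. Leaving out single arrays gave 12 to 23 of the 32 called in del DBD against MN1. Deviations of same-numbered arrays from their group means had correlations from -0.157 to 0.184. Differently numbered arrays were not compared, so whether the replicate numbers pair the samples was not settled. A fit with the replicate number as a block called 28, 19 and 16 of the 32, where the fit without it called 27, 19 and 17. Genes near background, such as Stc2 and Slc7a3 in MN1-TEL, have folds that depend on the background correction. Without it their differences from MN1 were -3.59 and -3.58.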
